A study of Aethionema arabicum with 12 samples.

Results

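The comparison set seeds of Aethionema arabicum kept for 14 d under white light against seeds at the end of their 1 d of light. Aethionema arabicum is a Brassicaceae relative of Arabidopsis, and the seeds were of its Cyprus accession, all labelled wild type. All seeds lay on moist filter paper at 14 °C, lit with white light (100 µmol m-2 s-1) for 23 h in the 1 d group and for 14 d in the 14 d group, and seeds that were still intact and had not germinated were frozen. Polyadenylated RNA was sequenced from 3 libraries of each group, 6 of the 12 libraries of the series. The other 6 libraries, 3 after 7 d of light and 3 after 7 d of light and 7 d of darkness, entered the fit, and those of 7 d of light are given beside the results where they show when a change had appeared. Of 24932 gene models in the table, 15301 had enough counts to be tested. Nothing in the labels tells whether replicate libraries stem from different batches of seed. The p-values therefore rest on library-to-library spread that could be technical. The groups differ in time since imbibition as well as in light received, and those cannot be told apart. Whole seeds were extracted, so fewer cells of a type and less RNA per cell cannot be told apart either.

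A seed that takes up water can resume growth and germinate, or stay alive and arrested. Abscisic acid (ABA) holds the arrest and gibberellin (GA) releases it, and germination itself needs wall loosening, cell expansion and the use of stored oil and protein. In secondary dormancy, which the series addresses, a seed able to germinate loses that ability while imbibed under unfavourable conditions, and the title of the series names light as what induces it in this accession.

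Library totals were 3387609 to 3996148 counts after 1 d, 1596668 to 2689668 after 7 d and 916523 to 2448092 after 14 d, so every 1 d library was deeper than every 14 d library. Levels are counts per 1e6 library counts (CPM) on TMM-scaled library sizes. Replicate 2 of 14 d, the deepest of its group, stood apart from replicates 1 and 3, with a chi-square per degree of freedom of 7.68 and 6.33 against 1.38 between those 2. Replicate 3 of 7 d, the shallowest of its group, likewise stood apart from replicates 1 and 2 (5.86 and 5.55 against 1.297 between those 2). No gene model of 300 bases or longer held more than 1 read per base of its length (highest 0.996), and the change from 1 d to 14 d ran with read density. The median log2 fold change was -0.82 over the 278 genes under 0.003 reads per base and 0.93 over the 257 genes above 0.3. Results on densely read genes are therefore given also by 14 d replicate 2 alone and with the length and density trends of each library removed.

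After 14 d, 4867 genes were higher and 4835 lower than after 1 d, 63.4% of those tested (31.8% higher and 31.6% lower), by the edgeR quasi-likelihood test (Benjamini-Hochberg adjusted p under 0.05). At least 2-fold changes were called for 2035 genes in the higher direction and 2477 in the lower direction. With so large a background, the count of a gene list that was called is read against these shares, and the lists are described by their counts and medians and by no test of their own. Ranges of a list's counts are over all alternatives tried, each left-out library among them. The median log2 fold change of all tested genes was near 0, and scaling by total counts alone moved it to -0.16 and the higher share of calls from 50.2% to 40.4%.

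**Figure D1:**
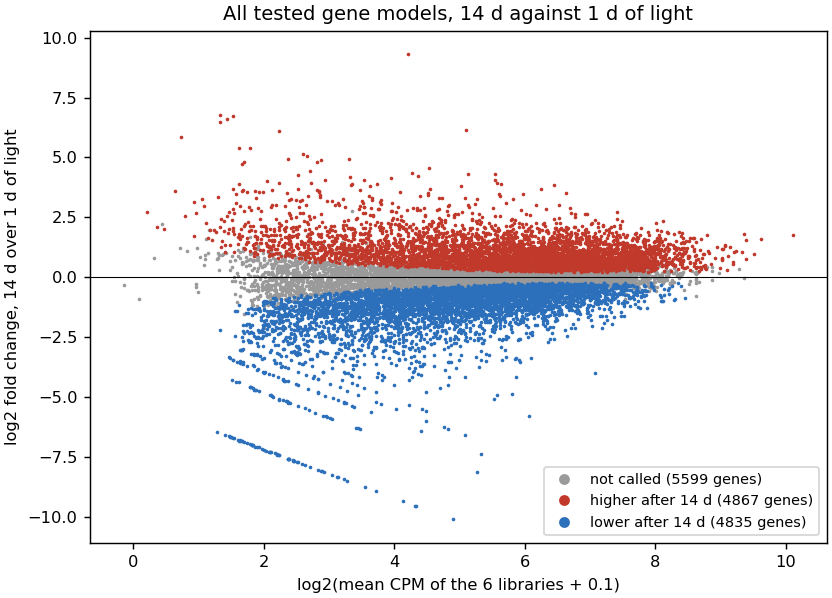
Log2 fold change of 14 d over 1 d of light (vertical axis) against log2 of the mean CPM of the 6 libraries plus 0.1 (horizontal axis) for the 15301 tested gene models. Red points are the 4867 genes called higher, blue points the 4835 called lower and grey points those not called. The cloud is nearly balanced around 0, with 2035 genes at least 2-fold higher and 2477 at least 2-fold lower.

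Most tested genes of wall loosening, DNA replication and the plant cuticle fell. Expansins are wall proteins that let growing cells extend without breaking wall bonds. Of the 8 tested expansin genes 7 fell and 1 rose, with a median log2 fold change of -4.96, or -3.22 with genes at 0 counts set at their bound. Without replicate 1 or replicate 2 of 1 d only 7 expansin genes passed the count filter, 6 of them lower, and their median was -3.39 or -3.37. EXPA15 (Aa31LG2G7320) had 121, 126 and 126 CPM in the 3 libraries of 1 d and 14.2, 11.4 and 12 CPM in those of 14 d, after 8.82, 8.35 and 8.24 CPM at 7 d. All libraries of 7 d and 14 d lay far below those of 1 d, and the log2 fold change was -3.35 ± 0.13 (SE; adjusted p = 6.24e-09). EXPA1 (Aa31LG4G11240) went from 72.9, 83.8 and 71.8 CPM to 1.18, 0 and 0 CPM, that is, to 1 count over the 3 libraries, 352-fold lower with a 95% counting interval of 62.9 to 13900. EXPA9 (Aa31LG1G22490) was 103-fold lower with a 95% counting interval of 35.3 to 503, and EXPA3 (Aa31LG5G23140) fell with a log2 fold change of -1.66 ± 0.13. The expansin gene that rose, EXPA20, is named here because it was the exception, and its log2 fold change was 0.70, not called by 14 d replicate 2 alone.

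Enzymes that cut and rejoin the xyloglucan and mannan of the wall were 3 up and 7 down of 12, or 2 to 4 up and 6 to 8 down over the alternatives. XTH8 (Aa31LG1G3200) had 15.5, 17.1 and 16.2 CPM after 1 d and was without a read after 14 d, at least 25.1-fold lower, and XTH4 (Aa31LG8G11680) changed by -5.32 ± 0.34. MAN5 (Aa31LG8G10120), paired with an endo-mannanase, rose by 1.61 ± 0.23. Other genes of walls and secreted hydrolases were among the 10 lowest fold changes of called genes with a mean of 10 CPM or more. A subtilase gene (Aa31LG9G7400), of a family of secreted proteases, had 58.1, 62 and 57.9 CPM after 1 d and no count in any library of 7 d or 14 d, at least 91.5-fold lower. A pectate lyase family gene (Aa31LG4G12280, at least 40.2-fold lower), the extensin-like ELP (Aa31LG1G2640, at least 61.1-fold lower), cysteine proteinase 1 (Aa31LG6G14100, 184-fold lower with a 95% counting interval of 50.9 to 1525) and a beta-glucosidase family gene (Aa31LG1G22710, at least 62-fold lower) were also among them. So was the transcription factor gene GATA2 (Aa31LG1G26630), which promotes light-grown development in Arabidopsis seedlings, at 23.6, 22.6 and 23.7 CPM after 1 d and without a read after 14 d. A serine carboxypeptidase-like gene (SCPL44, Aa31LG6G9640) went from 243, 269 and 251 CPM to 13, 19.2 and 13.4 CPM, and beta-glucosidase gene BGLU32 (Aa31LG1G22730) changed by -5.07 ± 0.24, among the smallest adjusted p-values of the comparison (8.75e-09 and 2.68e-08).

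All 11 tested DNA replication genes fell at least 2-fold, with a median log2 fold change of -2.74 that ranged from -2.92 to -2.32 over the alternatives tried. MCM4 (Aa31LG8G13790), a subunit of the helicase that opens replication origins, had 50.4, 53.6 and 53.1 CPM after 1 d and 9.45, 7.76 and 6.72 CPM after 14 d. The groups did not come near each other, and the 7 d libraries (8.09, 13.2 and 6.34 CPM) already held the low level. MCM6 (Aa31LG9G8530) changed by -3.90 ± 0.32 and ETG1 (Aa31LG10G11180), a replisome factor, by -2.92 ± 0.24. TSO2 (Aa31LG2G5530), the ribonucleotide reductase subunit that supplies deoxynucleotides, had the largest fall of the list, from 39.1, 40.8 and 45.2 CPM to 1.18, 0.817 and 0.747 CPM. Cyclin and cyclin-dependent kinase genes were divided, with 6 up and 4 down of 10, or 3 to 6 up and 2 to 4 down over the alternatives. CDKA;1 (Aa31LG4G17300), the main cell cycle kinase, rose by 1.09 ± 0.15, the mitotic kinase gene CDKB2;1 (Aa31LG4G6650) by 1.67 ± 0.13 and the D-type cyclin gene CYCD2;1 (Aa31LG7G14330) by 1.58 ± 0.15, while CDKB1;2 (Aa31LG5G23360) changed by -2.40 ± 0.24.

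Cutin and wax form the waterproof cuticle, and 9 of 15 tested genes of their synthesis fell and 4 rose (median -1.06), or 7 to 10 lower and 2 to 4 higher over the alternatives. CER1 (Aa31LG1G11600), which makes wax alkanes, went from 84.7, 100.1 and 91.2 CPM to 2.36, 2.45 and 4.48 CPM, a log2 fold change of -4.90 ± 0.26. The cuticle lipid exporter gene ABCG11 (Aa31LG7G2650) changed by -3.09 ± 0.35 and LACS2 (Aa31LG10G4540), which activates fatty acids for cutin, by -2.43 ± 0.28. MYB94 (Aa31LG4G16350), a factor that activates wax genes in Arabidopsis, went the other way, from 1.75, 1.36 and 1.6 CPM to 26, 24.1 and 37.4 CPM. Its 14 d libraries all lay far above its 1 d libraries, while the enzyme genes named lay below theirs. Water channel genes were 4 up and 3 down of 10 (2 to 5 up and 2 to 3 down), with TIP1;1 (Aa31LG5G22040), the vacuolar channel of growing cells, at -3.27 ± 0.36 and the seed-type TIP3;2 (Aa31LG7G2630) at 1.26 ± 0.22.

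**Figure D2:**
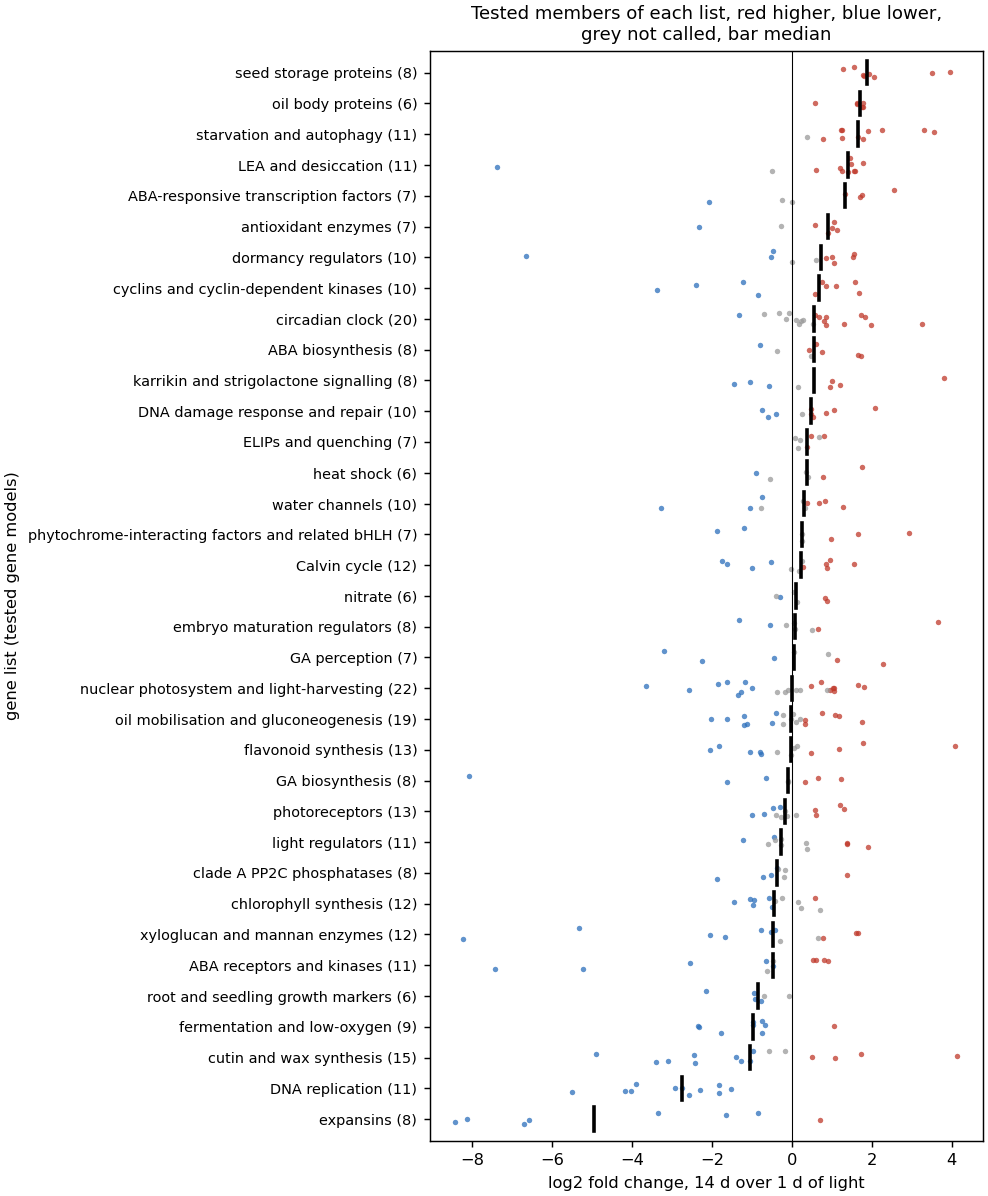
Log2 fold change of 14 d over 1 d of light for every tested member (points) of each list with at least 6 tested gene models; red is called higher, blue called lower, grey not called, and the black bar is the list median. Seed storage, oil body and starvation genes lie at the top with medians of 1.87, 1.69 and 1.66, and DNA replication and expansins at the bottom with -2.74 and -4.96.

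ABA genes moved at several steps. Of 8 tested biosynthesis genes 5 rose and 1 fell, or 3 to 6 up and 1 to 2 down over the alternatives, with 3 up without 14 d replicate 3. NCED6 (Aa31LG8G10550), 1 of the genes for the carotenoid-cleaving enzyme that sets the rate of ABA synthesis, had 21.3, 22 and 23 CPM after 1 d and 73.2, 80.9 and 63.5 CPM after 14 d, with 103, 84 and 84.3 CPM at 7 d. All libraries of 7 d and 14 d lay above all those of 1 d, and the log2 fold change was 1.72 ± 0.15 (adjusted p = 1.08e-06). NCED9 (Aa31LG4G2560), an NCED gene of seeds, had 11.5, 7.89 and 12.1 CPM after 1 d and 23.6, 42.5 and 27.6 CPM after 14 d, again without overlap (1.66 ± 0.27). NCED5 (Aa31LG6G5570) fell, from 113, 101 and 102 CPM to 55.5, 65.8 and 57.5 CPM (-0.80 ± 0.13), and its 7 d libraries were lower still at 34.9, 41.3 and 44.4 CPM. ABA3 (Aa31LG7G1090), whose product activates the last enzyme of the pathway, rose by 0.75 ± 0.14.

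The ABA 8'-hydroxylases, which break ABA down, gave 0 higher and 1 lower of 3. CYP707A2 (Aa31LG5G7160), the hydroxylase gene of imbibed Arabidopsis seeds, had 104, 106 and 99.9 CPM after 1 d, 62.5, 51.4 and 48.2 CPM after 7 d and 119, 98.4 and 103 CPM after 14 d. The 14 d libraries overlapped those of 1 d, and every 7 d library lay below both groups. Its log2 fold change of 14 d over 1 d was 0.04 ± 0.15 (adjusted p = 0.838), while that of 14 d over 7 d was 0.96 ± 0.16 (adjusted p = 0.0179). The latter call was lost without 14 d replicate 1 (adjusted p = 0.0783) or replicate 3 (0.0803). A CYP707A3 copy (Aa31LG9G7680) fell, from 26.1, 23.7 and 28.5 CPM after 1 d to 3.54, 2.86 and 6.72 CPM after 14 d (-2.65 ± 0.30).

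The ABA receptor and kinase genes were 4 up and 5 down of 11, or 1 to 4 up and 3 to 6 down over the alternatives. The receptor genes PYL6 (Aa31LG5G19230, at least 14.2-fold lower), PYL8 (Aa31LG3G9320, 46.9-fold lower with a 95% counting interval of 8.26 to 1868) and PYL4 (Aa31sc676G30, -2.56 ± 0.39) fell, and PYL5 (Aa31LG11G6510) rose from 24.6, 25 and 21 CPM to 41.3, 44.9 and 43.3 CPM. PYL5 was at 24.3, 25.5 and 33 CPM after 7 d, and its change of 14 d over 7 d did not pass (0.68 ± 0.14, adjusted p = 0.067). Clade A PP2C phosphatases, which hold ABA signalling off, were 1 up and 4 down of 8 (2 down by 14 d replicate 2 alone and 6 with total-count scaling): HAB1 (Aa31LG4G3120) rose by 1.39 ± 0.15, and ABI2 (Aa31LG3G12950) changed by -1.89 ± 0.22 and HAI3 (Aa31LG5G7050) by -0.73 ± 0.10. Of 7 ABA-responsive transcription factor genes 4 rose and 1 fell, with a median of 1.32, or 3 to 4 up and 1 to 2 down over the alternatives. Copies of ABF1 (Aa31LG10G4330 and Aa31LG8G6070) rose by 1.70 ± 0.10 and 2.56 ± 0.22 and ABF3 (Aa31LG2G16430) by 1.76 ± 0.24. The exception was ABI4 (Aa31LG5G19360), a factor of ABA and sugar responses in germinating seeds, at 108, 111 and 101 CPM after 1 d and 26, 21.6 and 29.1 CPM after 14 d (-2.09 ± 0.13). HB5 (Aa31LG1G16650), a homeodomain gene outside this list that in Arabidopsis promotes ABA responses of seedlings, went from 70.2, 72.1 and 70.7 CPM to 9.45, 11.4 and 9.71 CPM.

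GA biosynthesis genes were 3 up and 3 down of 8, with 1 to 3 up and 1 to 4 down over the alternatives. GA3OX1 (Aa31LG7G270), whose enzyme makes bioactive GA, had 13.3, 15.5 and 15.3 CPM after 1 d and was without a read after 14 d, at least 22.7-fold lower. GA20OX1 (Aa31sc904G10), of the step before, had 35.6, 41.6 and 39.9 CPM after 1 d, 28.7, 19.8 and 21.6 CPM after 7 d and 11.8, 13.5 and 12 CPM after 14 d. No library of a later time reached the level of an earlier time, and the log2 fold change of 14 d over 1 d was -1.62 ± 0.17. Between 7 d and 14 d no GA biosynthesis gene was called in either direction, GA20OX1 included. GA3 (Aa31LG11G4920), the kaurene oxidase gene early in the pathway, rose by 1.22 ± 0.22. The GA-inactivating oxidase genes had 0 higher and 1 lower of 3, GA2OX8 (Aa31LG1G18360) at -2.08 ± 0.37. With the libraries thinned to 1 total, GA2OX8 had too few counts to be tested.

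Of 7 genes of GA perception 2 rose and 3 fell, or 2 to 3 up and 2 to 4 down over the alternatives. The receptor gene GID1A (copy Aa31LG5G15490) rose from 106, 96.9 and 102 CPM to 256, 205 and 205 CPM, and SLY1 (Aa31LG7G10250), the F-box protein that marks DELLA repressors for destruction, by 2.28 ± 0.28. Another GID1A copy (Aa31LG11G2920) was too thinly read to be tested, with 15, 10 and 10 counts after 1 d and 0, 4 and 2 after 14 d. The DELLA genes GAI (Aa31LG1G140) and RGL1 (Aa31LG2G3030) fell, by 3.19 and 2.26 on the log2 scale. Both tested GASA genes, of GA-induced growth peptides, fell, GASA4 (Aa31LG11G14310) from 34.3, 38.4 and 37 CPM to 4.72, 2.04 and 2.24 CPM; the fall of GASA14 did not pass without 14 d replicate 2 (adjusted p = 0.101), without 1 d replicate 2 (0.0604) or with the libraries thinned to 1 total (0.061).

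**Figure D3:**
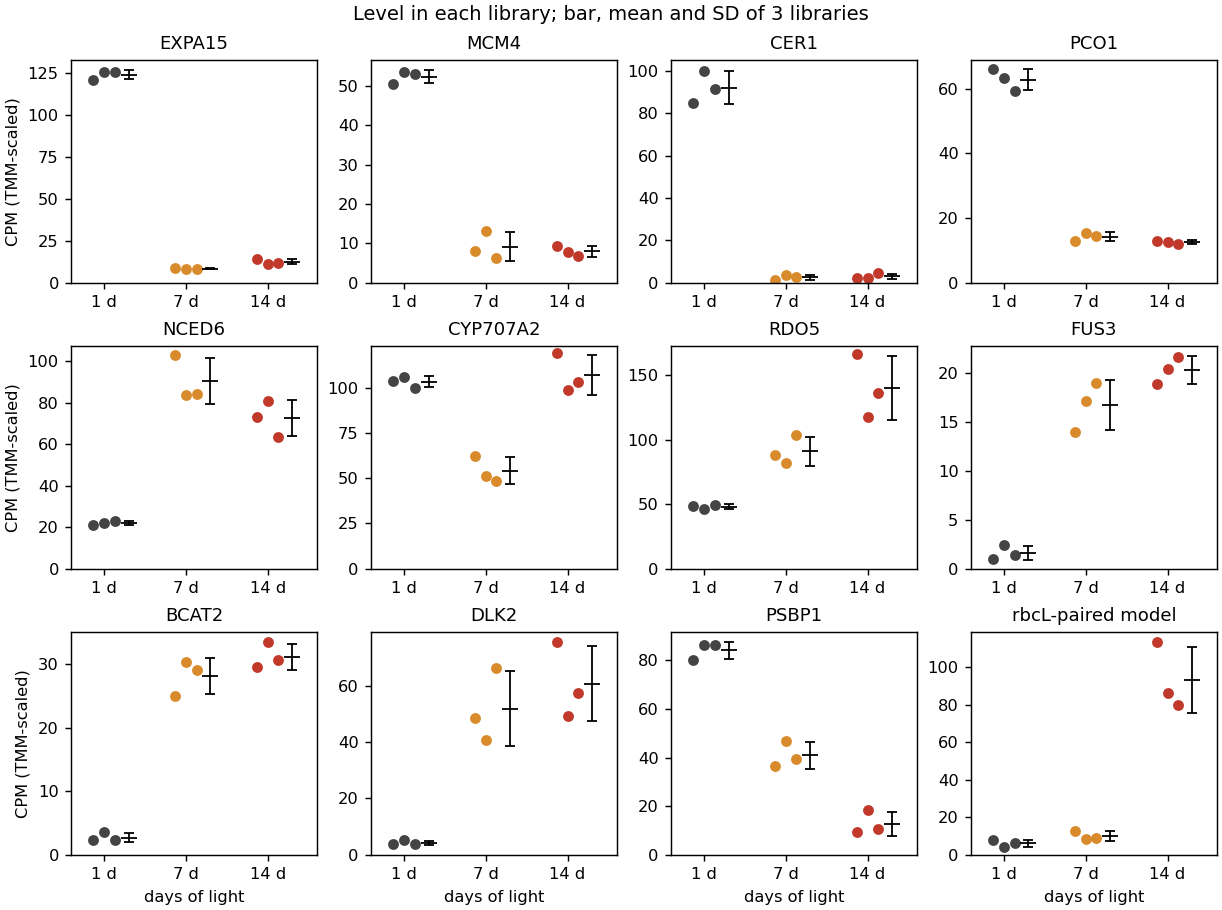
CPM on TMM-scaled library sizes (vertical axes, from 0) of 12 genes in the 3 libraries each of 1 d, 7 d and 14 d of light (points); the bar beside each group is the mean with its SD. EXPA15, MCM4, CER1 and PCO1 had reached their low level by 7 d, CYP707A2 was low only at 7 d, and PSBP1 and the model paired with the plastid gene rbcL moved further between 7 d and 14 d.

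Of 10 tested dormancy regulators 5 rose and 3 fell (median 0.73, and 0.09 with 3 up and 2 down by 14 d replicate 2 alone; 6 up without that library, and a median of 0.24 with 4 up and 2 down with the length and density trends removed). RDO5 (Aa31LG9G11130), a phosphatase-like protein whose loss reduces dormancy in Arabidopsis, had 48.9, 46.3 and 49.5 CPM after 1 d, 87.8, 81.8 and 103 CPM after 7 d and 166, 117 and 136 CPM after 14 d. The groups rose stepwise without overlap, with a log2 fold change of 14 d over 1 d of 1.52 ± 0.14 (adjusted p = 1.66e-06); that of 14 d over 7 d was 0.61 ± 0.14 (adjusted p = 0.102). DOG1 (Aa31LG9G7230), the central gene of natural variation in Arabidopsis dormancy, had 24.1, 20.7 and 24.4 CPM after 1 d and 48.4, 35.5 and 63.5 CPM after 14 d. Its 14 d libraries spread widely but all lay above those of 1 d (1.05 ± 0.20). DAG2 (Aa31LG1G27990), a Dof factor of germination, rose by 1.56 ± 0.17, and MFT (Aa31LG7G2970), a seed regulator that answers to ABA and GA, by 1.01 ± 0.21, which did not pass by 14 d replicate 2 alone (0.45, adjusted p = 0.0933). SPT (Aa31LG6G14050), a bHLH regulator of germination in Arabidopsis, had 5.76, 5.71 and 4.79 CPM after 1 d and was without a read after 14 d, at least 8.33-fold lower.

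Genes of karrikin and strigolactone signalling were 4 up and 3 down of 8, or 3 to 4 up and 1 to 3 down over the alternatives. These are related receptor pathways, and that of karrikins promotes germination in response to smoke compounds. DLK2 (Aa31LG8G11110), a receptor-like hydrolase whose transcript serves as a readout of the karrikin pathway in Arabidopsis, had 3.76, 5.17 and 3.65 CPM after 1 d and 75.6, 49.4 and 57.5 CPM after 14 d. Every 14 d library lay far above every 1 d library, and the log2 fold change was 3.80 ± 0.25 (adjusted p = 1.68e-07). The receptor genes KAI2 (Aa31LG6G14340) and D14 (Aa31LG5G14570) rose by 1.19 ± 0.19 and 0.99 ± 0.13.

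Embryo maturation regulators were 2 up and 2 down of 8, with a median of 0.07, or 2 to 4 up and 0 to 2 down over the alternatives. FUS3 (Aa31LG2G5750), a master regulator that imposes the seed programme on the embryo, had 1, 2.45 and 1.37 CPM after 1 d, 14, 17.1 and 19 CPM after 7 d and 18.9, 20.4 and 21.7 CPM after 14 d. Every library of 7 d and 14 d lay above every library of 1 d, and 14 d over 1 d gave a log2 fold change of 3.65 ± 0.27 (adjusted p = 3.24e-07). BZIP10 (Aa31LG5G2270), a partner in storage gene activation, rose by 0.65 ± 0.13, and BZIP25 (Aa31LG5G20790), another such partner, changed by -1.32 ± 0.21.

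Seed reserve genes were higher after 14 d, and their levels ran with library depth. All 8 tested seed storage genes rose (median 1.87), all 6 oil body genes (1.69) and 9 of 11 genes for LEA (late embryogenesis abundant) proteins and desiccation tolerance, with 1 lower (1.397). The summed CPM of the 8 storage genes was 1356, 1449 and 1257 in the 1 d libraries and 6768, 2901 and 4703 in those of 14 d, where the library totals were 916523, 2448092 and 1364240. In counts rather than CPM the same sum was 5410, 5325 and 5513 after 1 d and 5732, 7102 and 6294 after 14 d, so the shallower 14 d libraries held more storage reads than any 1 d library. For the oil body genes the count sums overlapped, with 3259, 3207 and 3361 after 1 d and 2686, 3507 and 3143 after 14 d. For the LEA genes they were 4428, 4398 and 4564 against 2996, 4207 and 3732, lower in each 14 d library than in any of 1 d.

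By 14 d replicate 2 alone, the medians were 1.06 for the storage list (8 up), 0.86 for the oil body list (5 up) and 0.66 for the LEA list (7 up and 1 down). With the length and density trends removed they were 1.38, 0.92 and 0.41 (8, 6 and 7 up, with 1 LEA gene down). The 257 genes read as densely as these lists had a median of 0.93, and the part of depth in these rises was not tested. The storage genes that stood above it most were the albumin gene SESA4 (Aa31LG5G10280), at 12.8, 22 and 13 CPM after 1 d and 227, 126 and 195 CPM after 14 d (3.50 ± 0.27), and CRD (Aa31LG1G9070), a cupin gene of the cruciferin kind, at 5.01, 6.26 and 5.25 and 126, 61.3 and 80.7 CPM (3.95 ± 0.27). Both were higher in every 14 d library, replicate 2 included. CRD itself was thinly read, with 20, 23 and 23 counts after 1 d over 5662 bases, so the median of 0.93 does not describe genes of its density. SESA3 (Aa31LG5G10270) rose by 2.05 ± 0.28, the vicilin-like PAP85 (Aa31LG8G9150) by 1.79 ± 0.25, the oleosin genes OLEO3 (Aa31LG3G7740) and OLEO4 (Aa31LG2G5010) by 1.77 ± 0.26 and 1.75 ± 0.30, and the LEA genes EM1 (Aa31LG10G9100) and LEA14 (Aa31LG1G10800) by 1.46 ± 0.25 and 1.77 ± 0.25. Replicate 2 was the lowest of the 14 d libraries for each of these rises. Among other genes above it was lowest also for SLY1, GA3, KAI2, TIP3;2, MFT, RDO5, DOG1 and DLK2. The dehydrin gene ERD10 (Aa31LG7G4750) went the other way, from 9.27, 8.71 and 8.89 CPM to no count, at least 13.8-fold lower.

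**Figure D4:**
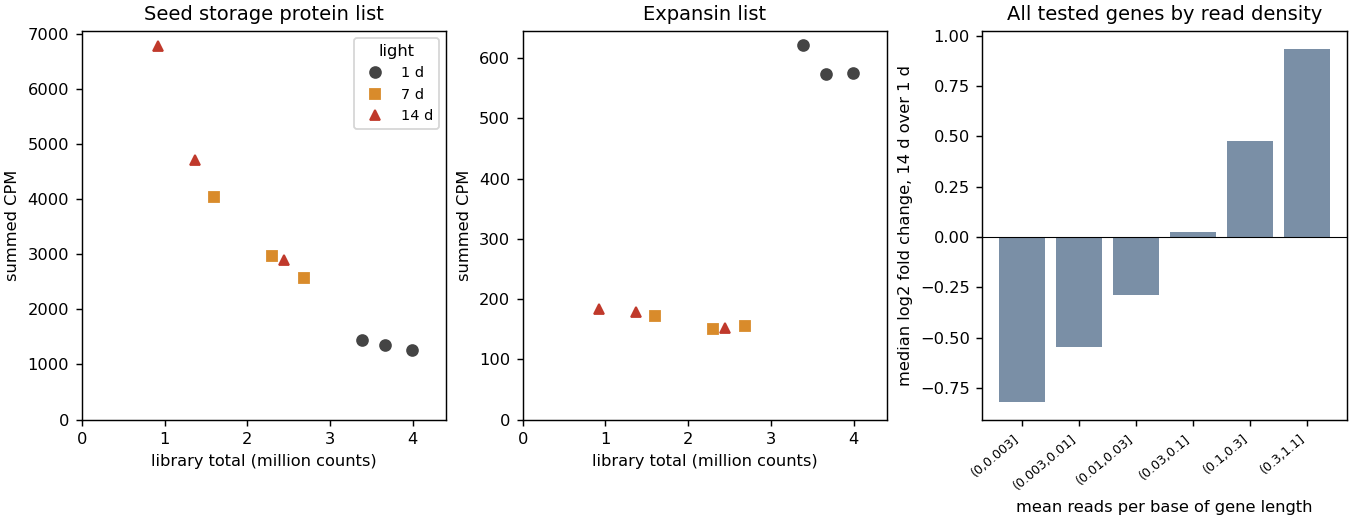
Left and middle, summed CPM of the tested seed storage genes (8) and expansin genes (8) against library total in units of 1e6 counts, for the 3 libraries each of 1 d, 7 d and 14 d of light. Storage levels run down with library total across all 9 libraries, whereas expansin levels differ between 1 d and later libraries at little slope within 7 d and 14 d; right, median log2 fold change of 14 d over 1 d for all tested genes by mean reads per base of gene length, from -0.82 to 0.93.

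The use of reserves and carbon moved in parts. Oil mobilisation and gluconeogenesis genes were 6 up and 7 down of 19, or 3 to 6 up and 6 to 9 down over the alternatives. SDP1 (Aa31LG1G21300), the lipase that starts oil breakdown, fell from 163, 156 and 162 CPM to 63.8, 78.8 and 62.8 CPM (-1.21 ± 0.12), the peroxisomal acyl-CoA oxidase gene ACX2 (Aa31LG1G16860) by 2.03 on the log2 scale and the peroxisomal citrate synthase gene CSY3 (Aa31LG1G24550) by 1.63, while peroxisomal malate dehydrogenase gene PMDH1 (Aa31LG3G17410) rose by 1.74 ± 0.22.

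Most tested genes induced by carbon starvation and genes of the ATG8 proteins, which coat forming autophagosomes, were higher after 14 d: 10 of 11 rose and none fell, with a median of 1.66. That median was 1.18 to 1.87 over the alternatives, with at least 10 higher in each. Untested members did not rise. DIN2 had 24, 3 and 5 counts after 1 d and 0 in each 14 d library. DIN10 had 8, 4 and 11 after 1 d and 0, 2 and 2 after 14 d, and DIN1 had 0 throughout. BCAT2 (Aa31LG1G4810), a branched-chain amino acid transaminase of starved tissue, had 2.26, 3.54 and 2.28 CPM after 1 d and 29.5, 33.5 and 30.6 CPM after 14 d. The groups lay far apart, and the change was 3.55 ± 0.21 (adjusted p = 9.43e-08). ATG8H (Aa31LG5G16940) rose from 2.26, 2.18 and 2.28 CPM to 24.8, 23.3 and 20.2 CPM, ATG8G (Aa31LG10G14930) by 2.25 ± 0.21 and the asparagine synthetase gene DIN6 (Aa31LG4G16120) by 1.25 ± 0.13.

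Genes of fermentation and low oxygen went down, 8 of 9 lower and 1 higher (median -0.98), or 5 to 8 lower over the alternatives. PCO1 (Aa31LG11G14430), of an oxygen-sensing oxidase that is itself induced by low oxygen, had 65.9, 63.1 and 59.3 CPM after 1 d and 13, 12.7 and 12 CPM after 14 d, with little spread in either group (-2.32 ± 0.14). PCO2 (Aa31LG9G1690) and the alcohol dehydrogenase gene ADH1 (Aa31LG4G7150) changed by -1.78 ± 0.12 and -0.67 ± 0.12. The member that rose was LDH1 (Aa31LG6G2900), lactate dehydrogenase (1.06 ± 0.14).

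Light-related lists went both ways. Photoreceptor genes were 4 up and 4 down of 13, but 1 down without 14 d replicate 3, 2 down without 1 d replicate 3 and 6 down without 14 d replicate 2, with 3 to 5 up over the alternatives. UVR8 (Aa31LG1G18040), the UV-B receptor, and the blue-light receptor genes PHOT2 (Aa31LG3G13970) and CRY1 (Aa31LG9G14620) rose by 1.301 ± 0.14, 1.197 ± 0.12 and 0.58 ± 0.14, and PHYA (Aa31LG1G5460), the phytochrome that is light-labile as a protein, went from 257, 229 and 246 CPM to 133, 128 and 103 CPM. Of 11 light regulators 3 rose and 2 fell, or 3 to 5 up and 0 to 5 down over the alternatives, with 5 down without 14 d replicate 2, none by that library alone and 1 without 1 d replicate 1 or 3 or 14 d replicate 1 or 3. Among them were the HY5 relative HYH (Aa31LG8G4480) at 1.91 ± 0.22 and the B-box gene BBX21 (Aa31LG4G5770) at 1.38 ± 0.20. Phytochrome-interacting factor genes were 3 up and 2 down of 7 (3 to 4 up and 1 to 2 down): PIF5 (Aa31LG10G13550) rose by 2.92 ± 0.38, PIF4 (Aa31LG1G24780) by 1.64 ± 0.28, and PIF3 (Aa31LG1G5530) changed by -1.88 ± 0.33.

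Of 20 clock genes 10 rose and 1 fell (median 0.55), or 9 to 12 up and 1 to 3 down over the alternatives. The evening-phased repressor gene PRR5 (copy Aa31LG1G29300) had 9.77, 11.2 and 10.5 CPM after 1 d and 103, 80.5 and 123 CPM after 14 d, with no overlap (3.26 ± 0.22), and PRR3 (Aa31LG1G12280), RVE8 (Aa31LG3G2040) and ELF3 (Aa31LG5G9760) rose by 1.82 ± 0.21, 1.74 ± 0.10 and 0.81 ± 0.10. The labels give no hour of the day for the harvests, so clock time and days of light cannot be told apart. DNA damage and repair genes were 6 up and 3 down of 10, with 0 to 3 down and 4 to 7 up over the alternatives. PHR1 (Aa31LG1G2270), the photolyase that reverses UV lesions, rose from 12.8, 13.9 and 14.4 CPM to 70.8, 51.5 and 55.3 CPM (2.07 ± 0.15), and the end-joining genes KU80 (Aa31LG10G5650) and KU70 (Aa31LG7G1410) by 1.05 ± 0.10 and 0.53 ± 0.09.

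Nuclear photosystem and light-harvesting genes were 8 up and 8 down of 22 (6 to 9 up and 7 to 9 down), with a median near 0. LHCB6 (Aa31LG7G410), of an antenna protein, rose by 1.81 ± 0.14, and the oxygen-evolving complex genes PSBO1 (Aa31LG1G15120) and PSBP1 (Aa31LG1G7720) changed by -3.67 ± 0.31 and -2.58 ± 0.18. PSBP1 had 80.2, 86.3 and 86.2 CPM after 1 d, 36.4, 47 and 39.3 CPM after 7 d and 9.45, 18.4 and 10.5 CPM after 14 d, falling in both weeks without overlap. Chlorophyll synthesis genes were 1 up and 6 down of 12 (median -0.46), with the reductase gene DVR (Aa31LG11G10960) at -1.44 ± 0.14 and the magnesium branch genes CHLM (Aa31LG7G10590) and CHLD (Aa31sc55G60) at -1.04 ± 0.16 and -0.96 ± 0.18. ACD1 (Aa31LG4G14210), the pheophorbide oxygenase that opens the chlorophyll ring during its breakdown, had 24.1, 20.7 and 27.8 CPM after 1 d and 178, 178 and 190.5 CPM after 14 d. It was among the 5 rises with the smallest adjusted p (2.91 ± 0.13, adjusted p = 2.29e-08). Calvin cycle genes were 5 up and 4 down of 12 (3 to 6 up), among them RPE (Aa31LG11G2010) at 1.56 ± 0.14 and GAPA (Aa31LG2G5900) at -1.61 ± 0.22.

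Flavonoid genes were 4 up and 5 down of 13 (median -0.03), but 3 up and 9 down with the length and density trends removed (-0.48) and 3 up and 6 down by 14 d replicate 2 alone (-0.32). LDOX (Aa31LG1G20510), which acts late in the path to anthocyanins and tannins, rose from 6.01, 3.27 and 5.7 CPM to 99.2, 62.5 and 103 CPM (4.07 ± 0.27), and FLS1 (Aa31LG3G17900), of flavonol synthesis, by 1.77 ± 0.17, while F3'H (Aa31LG3G18530) changed by -0.81 ± 0.11. Of 5 tested tocopherol genes 3 rose and 1 fell, with 1 to 3 up and 1 to 2 down over the alternatives. The fall was of VTE4 (Aa31LG2G2160), which methylates gamma- to alpha-tocopherol, from 41.1, 49.8 and 41.5 CPM to 0, 1.23 and 0 CPM, 67.8-fold lower with a 95% counting interval of 23.1 to 329.9. Photoprotective ELIP and quenching genes were 3 up and none down of 7, with 1 to 4 up over the alternatives and 1 down with the length and density trends removed, and OHP2 (Aa31LG6G8220) at 0.80 ± 0.13. Antioxidant enzyme genes were 5 up and 1 down of 7 (median 0.89), but 3 up and 2 down by 14 d replicate 2 alone (0.32) and 5 up and 2 down with the trends removed (0.36), with CAT1 (Aa31LG7G4850), a catalase, at 1.04 ± 0.13 and the cytosolic ascorbate peroxidase gene APX1 (Aa31sc175G10) at -2.32 ± 0.21. Heat shock genes were 2 up and 1 down of 6 (2 to 3 up and 1 to 2 down), with HSP90.1 (Aa31LG3G8960) at 1.76 ± 0.13. Class III peroxidase genes were 5 up and 5 down of 12, nitrate genes 2 up and 1 down of 6, or 1 to 2 up and 0 to 1 down (NRT2.7, Aa31LG11G15330, a nitrate transporter of seeds, at 0.87 ± 0.10, not called with the density trend removed), and the 1 tested defence gene, EDS1 (Aa31LG4G16710), rose from 9.02, 8.71 and 8.21 CPM to 41.3, 44.5 and 29.9 CPM. The other defence gene, PAD4, was too thinly read to be tested, with 9, 8 and 7 counts after 1 d and 2, 0 and 0 after 14 d.

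Pentatricopeptide repeat (PPR) genes encode organelle proteins that bind and process plastid and mitochondrial RNA: 153 of 218 fell (70.2%, beside 31.6% of all tested genes) and 7 rose, with a median of -0.99. Their genes are thinly read, and the 4274 genes of their read density had a median of -0.29; with the length and density trends removed, 135 PPR genes were lower and 13 higher (median -0.79). PGR3 (Aa31LG2G18380), which stabilises plastid transcripts, went from 113, 102 and 113 CPM to 18.9, 27.8 and 14.9 CPM. Gene models paired with genes of the plastid and mitochondrial genomes themselves went up, 29 of 47 higher and 1 lower (median 1.54). Of the 14 plastid-paired models 12 rose and 1 fell, and of the 33 mitochondrial-paired models 17 rose and none fell. Replicate 1 of 1 d held 0.208% of its counts in such models against 0.0619 and 0.0805% in replicates 2 and 3, and the 14 d libraries held 0.277, 0.375 and 0.230%. Without 1 d replicate 1, 39 models were higher (median 2.65), and without 1 d replicate 3, 21 (1.14). Without 14 d replicate 2, 22 were higher and 4 lower. Poly(A) tails, on which the RNA was selected, are absent from most organelle transcripts.

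For ribosomal protein genes the direction depended on the setting. Of 290, 121 were higher and 58 lower (median 0.35), but by 14 d replicate 2 alone 16 were higher and 75 lower (-0.12), and with the length and density trends removed 69 were higher and 131 lower (-0.17). Leaving out 14 d replicate 2 gave 162 higher, and the count fell to 67 or 80 when replicate 1 or 3 of 14 d was left out and to 76 when replicate 3 of 1 d was. Ribosomal proteins come from families of similar genes, and how reads shared between copies were counted is unknown here. Models whose description names a histone, which include histone-modifying enzymes, were 23 up and 10 down of 46 (median 0.32), but 13 up and 15 down with the trends removed (0.11) and 13 up and 9 down by 14 d replicate 2 alone (0.19). Among the histones themselves, HTA6 (Aa31sc23G90), an H2A gene, went from 50.9, 55.8 and 52.7 CPM to 14.2, 7.35 and 8.22 CPM, whereas an H3-type gene (Aa31LG7G4390) went from 19.1, 19.9 and 19.2 CPM to 166, 109 and 146 CPM; the groups of each did not overlap.

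The largest rises among well expressed genes with an Arabidopsis pair were led by FUR1 (Aa31LG3G2490), a nucleoside transporter, at 1.25, 0.272 and 1.14 CPM after 1 d and 67.3, 66.6 and 68.7 CPM after 14 d. Its 14 d libraries were nearly equal, and the log2 fold change was 6.13 ± 0.24 (adjusted p = 6.24e-09). RIP2 (Aa31LG4G2530), named for binding ROP GTPases, rose by 4.55 ± 0.34, the MADS-box gene AGL30 (Aa31LG5G9490) by 4.33 ± 0.34, a berberine bridge enzyme family gene (Aa31LG9G8780) by 4.32 ± 0.31, the receptor-like protein gene RLP6 (Aa31LG3G3620) by 3.88 ± 0.37 and a U-box kinase gene (Aa31LG1G16490) by 3.88 ± 0.33. An ABC transporter gene (Aa31LG3G9100) shared the smallest adjusted p of any rise, with 10.02, 11.2 and 11.2 CPM after 1 d and 93.3, 102 and 85.2 CPM after 14 d. Of the 3271 models with no Arabidopsis pair 595 had enough counts to be tested, of which 278 rose and 113 fell. Among all tested genes 31.8% rose and 31.6% fell. How the counts of unpaired models depend on read density was not tested. The highest called model without a pair at 10 CPM or more was Aa31LG2G3570 (4.23 ± 0.57) and the lowest Aa31sc115G50 (102-fold lower with a 95% counting interval of 18.1 to 4040).

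The second week was compared directly. Between 7 d and 14 d, which tests whether the change from 1 d differed at the 2 times since both share the 1 d libraries, 25 genes were higher and 22 lower, 0.307% of those tested. These counts rested on single libraries: without 14 d replicate 2 they were 921 higher and 743 lower, and by that library alone 16 higher and 3 lower. Leaving out the third library of 14 d gave 17 higher and 5 lower, the first of 14 d 17 and 14, the first of 1 d 44 and 17, and the third of 7 d 42 and 57. Of the named genes, 15 were called with all libraries, 51 without 14 d replicate 2, 9 without 14 d replicate 3, 8 by 14 d replicate 2 alone and 19 without 7 d replicate 3. A model paired with plastid rbcL (Aa31sc227G10), the large subunit of the carbon-fixing enzyme Rubisco, had 7.77, 4.08 and 6.39 CPM after 1 d, 12.9, 8.35 and 8.88 CPM after 7 d and 113, 86.2 and 79.95 CPM after 14 d. Its log2 fold change was 3.89 ± 0.20 over 1 d and, between 7 d and 14 d alone, 3.15 ± 0.21 (adjusted p = 2.04e-05). Plastid-paired ATP synthase models Aa31csc39G190 and Aa31csc39G200 and the cytochrome f gene PETA (Aa31sc334G20) rose over 1 d by 2.53 ± 0.15, 2.42 ± 0.22 and 2.58 ± 0.14, and over 7 d by 1.03 ± 0.15, 1.52 ± 0.21 and 1.16 ± 0.14. In the lower direction, a PLAT domain gene (Aa31LG7G14560) fell in both weeks, from 72.2, 77 and 70.7 CPM after 1 d through 20.6, 18.5 and 17.8 CPM to 5.9, 5.72 and 4.48 CPM after 14 d (-1.81 ± 0.19 from 7 d, adjusted p = 0.00168). The cutin gene GPAT4 (Aa31LG1G10980) had 44.6, 47.6 and 41.7 CPM after 1 d, 33.1, 49.2 and 24.1 CPM after 7 d and 5.9, 10.6 and 5.23 CPM after 14 d. It overlapped between 1 d and 7 d and then fell, with a log2 fold change of -2.15 ± 0.32 from 7 d, a call lost without 14 d replicate 3 (adjusted p = 0.068).

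Marker genes of tissues were checked beside these lists. Of 6 tested root and seedling growth markers 4 fell and none rose, and their summed level was 250.1 to 265 CPM after 1 d and 81.5 to 134 CPM after 14 d, with 3 to 5 lower over the alternatives. The auxin carrier gene PIN2 (Aa31LG3G12980) changed by -2.16 ± 0.15. RHD6 (Aa31LG2G3120) and SCR (Aa31LG9G4360) were also among those that fell, SCR not without 14 d replicate 3. Some markers of root hairs (EXPA7 and EXPA18) and of the root stem cell niche (WOX5) were untested, at 0 to 3 counts in every library of 1 d. Other untested markers were read after 1 d, with 15, 23 and 28 counts for COBL9, 9, 13 and 6 for PRP3 and 21, 15 and 29 for SHR in the 3 libraries, and had 0 to 3 counts in each 14 d library. Endosperm markers were 2 down of 3 (208 to 224 CPM against 164 to 176 CPM; 1 down with the libraries thinned to 1 total), with the endosperm factor gene ZOU at 0. Seed coat markers were 1 up and 1 down of 3, or 2 down without 14 d replicate 2. Their summed level was 103 to 112 CPM against 111 to 117 CPM, so the groups overlapped, with TT10, TT12, TT16 and MYB61 at 0 after 1 d. The part of tissue makeup in the changes of other lists was not tested.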

How the data were processed

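Seeds of 12 libraries were sequenced as polyadenylated RNA, 3 libraries per condition, and the deposited table gives raw counts per gene model with RPKM beside them. The deposited RPKM equals count over length over the column total (largest relative difference 3.45e-08), so the authors' RPKM was used for no test. Per the labels' protocols, libraries were made with the Lexogen SENSE kit after poly(A) selection. The submitters' processing notes name bcl2fastq 2.17.1, Trimmomatic, Bowtie2 2.3.5.1, HTSeq 0.11.2 and TAIR10, with no role or order. Whether identical reads were collapsed, and how counting used strand, is unknown here. The authors' counts stayed under 1 read per base in models of 300 bases or longer; a limit of that kind lowers the CPM of densely read genes more in deeper libraries.

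From the counts, edgeR 4.0.16 in R 4.3.3 fitted 4 group means over all 12 libraries (TMM scaling, default expression filter, quasi-likelihood test, two-sided, Benjamini-Hochberg adjustment over 15301 models, threshold 0.05). The models left untested held 0.379% of counts. Standard errors are log2 fold changes divided by root F, taken as positive. Genes at 0 counts in a group are given as bounds against 3 counts over the group, and genes at 1 to 3 counts as ratios with exact 95% counting intervals; both cover counting error only. No replicate pair differed by less than the sampling noise (chi-square per degree of freedom at least 1.14), so all were kept. Scripts were tested on simulated data. Alternatives were total-count scaling, no filter, DESeq2 1.42.0, the 6 libraries alone, a replicate block, thinning, expansion of counts for 1 read per base, removal of length and density trends, and leaving out libraries. The removal of both trends and the fit without 7 d replicate 3 were added after seeing the data.

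Members and lists were chosen with earlier results of these data known. The rule for named genes took the 10 highest and 10 lowest called fold changes with a mean of at least 10 CPM, the 5 smallest adjusted p in each direction, up to 4 called members of each list or family by smallest adjusted p, tested members of the hormone metabolism, dormancy and marker lists, the 5 largest changes between 7 d and 14 d in each direction, and the 2 highest and 2 lowest models with no Arabidopsis pair. It allows 223 genes, of which some are not reported here. Gene names are those of the Arabidopsis genes that the deposited table pairs with the models; 21661 of 24932 models have a pair.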

Additional observations from a re-analysis of the deposited data

How the results depend on the processing

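Over the alternatives, the count of higher genes was 3681 to 5314 and of lower genes 3656 to 5774, each within 1.5 times the reported count. Leaving out 1 library, of the 6 or replicate 3 of 7 d, gave 4124 to 4938 higher, 4429 to 5283 lower, 1773 to 2171 at least 2-fold higher, 2473 to 3127 at least 2-fold lower and a higher share of 46.9 to 49.4%. Among named genes, 201 to 210 were called when a library was left out, against 209 with all, and of the list genes 259 to 290, against 281. Total-count scaling gave 3910 higher and 5774 lower. Of the 209 called named genes, 199 kept their call in every fit with a library left out that tested them. Under all alternatives that tested them, 182 did. A gene that the count filter of an alternative removed was not counted as lost there, so both counts are upper limits. The count of named genes that differ between 7 d and 14 d, 15 with all libraries, was 9 to 51 with 1 library left out (51 without 14 d replicate 2 and 9 without 14 d replicate 3), and 8 by 14 d replicate 2 alone; the cause was not tested. CYP707A2, not called between 1 d and 14 d, reversed sign with total-count scaling (-0.13), without 1 d replicate 3 (-0.0075), without 14 d replicate 1 (-0.070; 0.075 without 14 d replicate 2) and by 14 d replicate 2 alone (-0.10). Same-numbered libraries did not deviate together (r = -0.0025, -0.27 and -0.11), so the numbers were not taken as pairs; the replicate block gave 4589 higher and 4592 lower. The shallower 14 d libraries limit what can be shown for thinly read genes, and the read-density limit does so for the densest.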
